A study of Mus musculus with 111 samples.

Results

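Glycine is carried to the ribosome by tRNAs of 3 anticodons, GCC, CCC and TCC, and the deposited table of small RNA counts names 8 cytosolic entries for them: tRNA-Gly-GCC-1, GCC-2, GCC-3 and GCC-4, tRNA-Gly-CCC-1, CCC-2 and CCC-3, and tRNA-Gly-TCC-1. They were chosen by name alone, as cytosolic sense entries with 1 copy number. A limit to the 10 entries with the most reads removed none, because there were only 8. These 8 stand among 154 entries for cytosolic tRNAs and among 1042 small RNA features left after entries listing the same reads had been merged. The counts came from OTTR-seq, a library method in which a reverse transcriptase adds both adapters as it copies an RNA, of libraries from mouse heart, cauda sperm, cauda epididymis, caput epididymis, testis and liver. The mice had been raised for 6 months on 1 of 4 diets: a low-protein diet (10% protein, the difference replaced by sucrose), its control diet (18% protein), a high-fat diet (60% fat calories) or a high-fat control diet (7.2% fat calories). Each of the 24 combinations of tissue and diet held 4 or 5 libraries. The mouse strain, the age at the start and the animal behind each library are not given in the labels. Each p-value reflects only how libraries within groups vary, which may in part be technical. In the main fits that spread is estimated over all groups of the fit and partly shared between features, not taken from the compared groups alone.

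As background, glycine is coded by the codons that begin with GG. The tRNA with anticodon GCC reads the codons ending in C and U, CCC reads the codon ending in G, and TCC reads those ending in A and G. Each anticodon is served by several nuclear genes with identical or nearly identical mature sequences, and the copy numbers in the entry names stand for different sequences of the same anticodon. In mice, 5′ fragments of tRNA-Gly-GCC are among the abundant small RNAs of sperm and epididymis, and their level in sperm has been reported to respond to a low-protein diet. The table gives 1 count per tRNA and does not divide it into full-length tRNA and fragments. Every column heading ends in the same code, which may bear on read length but which the labels do not explain. The 2 forms therefore cannot be told apart here, and it is not known whether fragments were counted at all. Nor can fewer cells of a type be told apart from less RNA per cell in these bulk tissues.

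GCC made up most of the glycine reads. Over all libraries tRNA-Gly-GCC-2 had 264094 reads, or 40.3% of the reads of the 8 entries, tRNA-Gly-GCC-4 had 208114 (31.7%) and tRNA-Gly-GCC-1 had 62937 (9.59%). The single TCC entry, tRNA-Gly-TCC-1, had 88347 (13.5%), and tRNA-Gly-CCC-1 had 29712 (4.53%). The other 3 were rare, with 1345 reads of tRNA-Gly-CCC-3, 1041 of tRNA-Gly-CCC-2 and 380 of tRNA-Gly-GCC-3. Antisense entries of the same names held 2 reads in all, and 13 entries with a second copy number held 24 to 310 reads each, so neither adds materially to the sums.

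The mouse reference annotation of RefSeq (GRCm38.p6, the assembly of mm10) lists 27 cytosolic glycine tRNA genes on 9 chromosomes, 14 with anticodon GCC, 6 with CCC and 7 with TCC. A cluster on chromosome 1, from 171037997 to 171102827, holds 9 of them, 4 for GCC and 5 for TCC. RefSeq numbers the genes in its own way, and these names could not be matched to the copy numbers of the table, so no entry is given a single position. No source used here states how reads were divided between near-identical copies. The counts of tRNA-Gly-GCC-2 and tRNA-Gly-GCC-4 differed, summed over libraries, by only 21.2% of the GCC-2 total, and those of tRNA-Gly-CCC-3 and tRNA-Gly-CCC-2 by 23%, so the same read may be listed under both names and values of single entries are uncertain. A sum without tRNA-Gly-GCC-4 is therefore given beside the sum of all 8.

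Libraries held 827 to 1467880 reads over the 1042 features (median 59904), and the 3 under 5000 were high-fat liver replicate 3 and low-protein caput replicates 2 and 3. Mitochondrial tRNAs took 71 ± 13.4% of heart reads (SD, n = 19) and 45.8 ± 20.9% of liver reads (n = 17), against 9.5 ± 5.15% in cauda (n = 18), which lowers the RPM (reads per 1000000 reads over these features) of any cytosolic tRNA in heart and liver. Entries for piRNA precursors, which the germ line makes, took 4.54 ± 3.79% of reads in testis and 0.00554 ± 0.00859% in heart, and miRNA markers of the tissues were not used here. Of all libraries, 18 correlated best with the median profile of another tissue over 289 features without glycine tRNAs. They were low-protein liver 1 and 4, control liver 2 and 4, high-fat liver 1 and 2 and high-fat control liver 2 (with heart, or with caput for low-protein liver 1 and high-fat control liver 2), low-protein heart 1, 2 and 4 (with liver), control testis 1, 2 and 5 (with heart), low-protein caput 1 to 4 (with liver) and low-protein sperm 3 (with cauda). In 4 liver libraries, 3 of them among these, the glycine entries themselves stood apart. In low-protein liver replicates 4 and 5 and high-fat liver replicates 1 and 2, tRNA-Gly-GCC-1 had 33.7 to 49.5 reads per 100 reads of tRNA-Gly-GCC-2, inside the range of the 19 heart libraries (25.1 to 62), whereas the other 13 liver libraries had 0 to 8.54. Their columns carry the consecutive numbers S51, S52, S53 and S54. The correlation with the heart profile was 0.979, 0.967 and 0.982 in low-protein replicate 4 and high-fat replicates 1 and 2, against 0.956, 0.953 and 0.940 with the liver profile. In low-protein replicate 5 it was 0.915 with heart and 0.948 with liver. What sets these libraries apart was not tested. Liver sums, shares and diet results are given with and without the 4, and the low-protein results of liver, heart, testis and caput also without the 18.

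Summed over the 8 entries, glycine tRNAs had the highest mean RPM in caput and the lowest in heart. The sum averaged 57176 ± 21391 RPM in caput (SD, n = 19), 40879 ± 22493 in liver (n = 17), 40301 ± 22739 in testis (n = 19), 27355 ± 13193 in cauda (n = 18), 23956 ± 23536 in sperm (n = 19) and 20997 ± 10858 in heart (n = 19). The spread within a tissue was wide, with 3013 to 77084 RPM in sperm and 27379.9 to 92431 RPM in caput, and the means of neighbours in this order differed by less than the SD of either tissue. Without tRNA-Gly-GCC-4 the sum averaged 36375 ± 12878 RPM in caput and 16060.3 ± 8691 RPM in heart. As a share of cytosolic tRNA reads, which is free of the mitochondrial tRNAs, the order changed: glycine tRNAs took 12.6 ± 5.46% in liver, 10.6 ± 3.32% in sperm, 10.1 ± 2.94% in caput, 8.74 ± 2.44% in heart, 8.51 ± 2.44% in testis and 6.99 ± 1.64% in cauda. Without the 4 liver libraries the sum in liver was 48091 ± 20751 RPM, 31735 ± 13159.9 RPM without tRNA-Gly-GCC-4, and the share in liver was 14.4% ± 4.97 (n = 13). The order also depended on the scaling. With TMM factors, which the fits below use, the sums per anticodon were higher in heart than in testis. In a fit with every cytosolic tRNA summed per anticodon, they were higher by 1.96 ± 0.33 (GCC), 2.25 ± 0.41 (CCC) and 2.08 ± 0.33 (TCC) on the log2 scale.

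**Figure D1:**
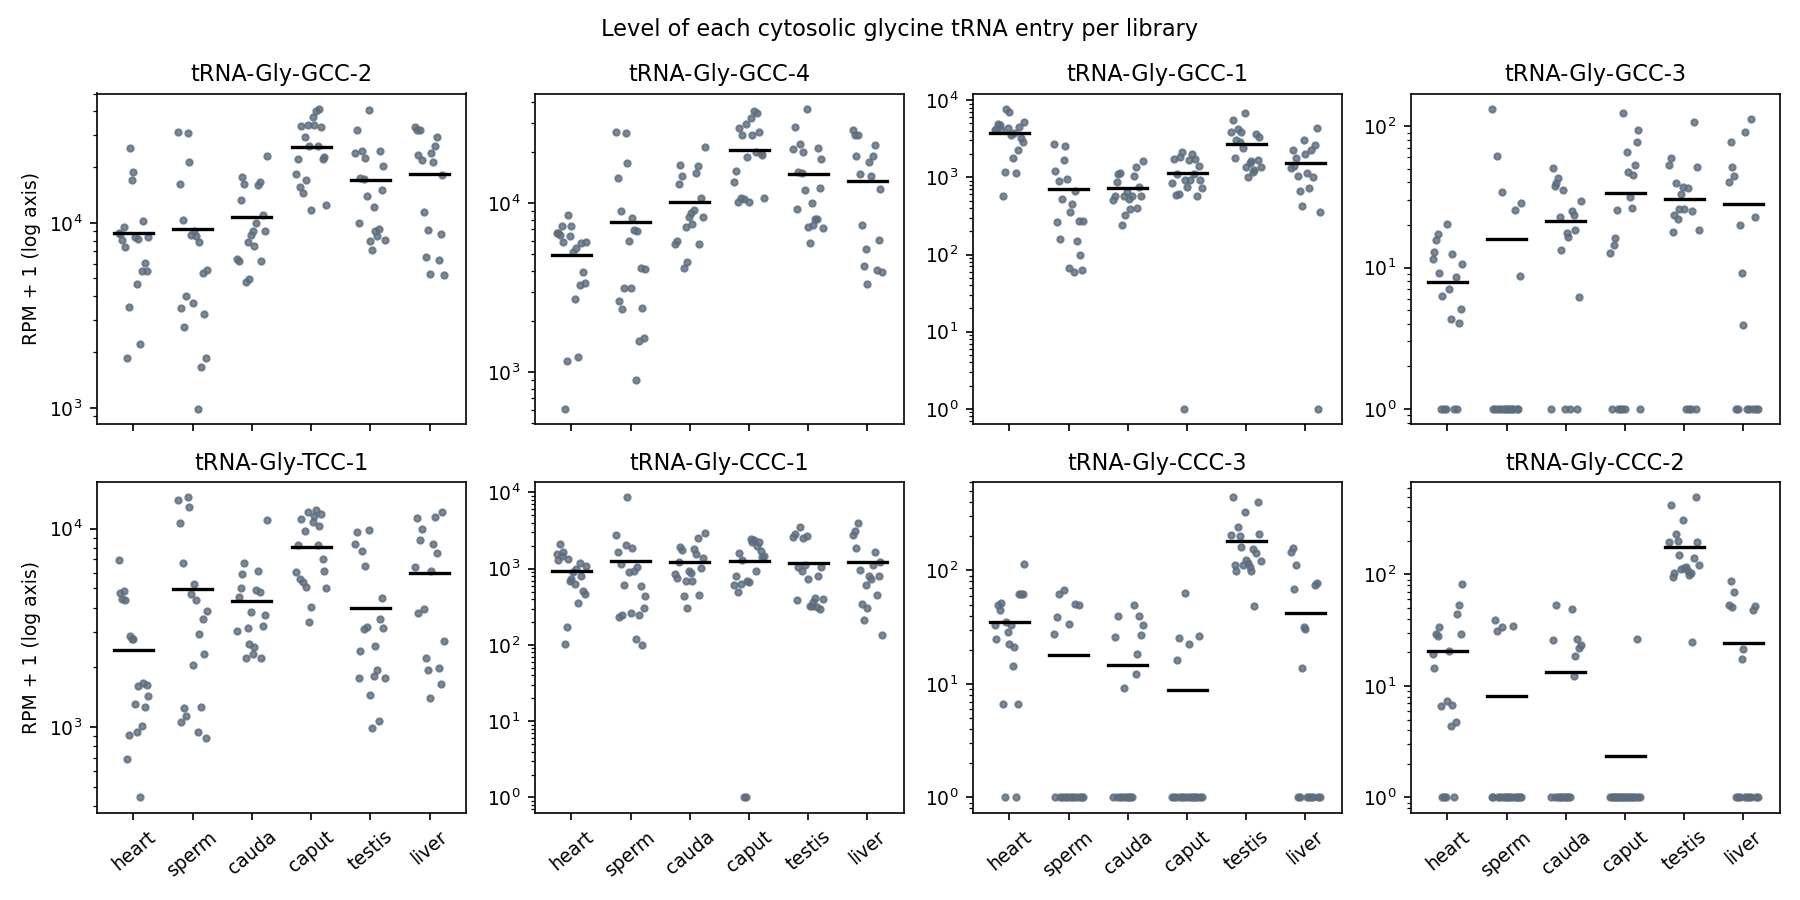
RPM plus 1 on a log axis for each of the 8 glycine tRNA entries, with 1 point per library and a bar at the mean of each tissue. tRNA-Gly-CCC-2 and tRNA-Gly-CCC-3 had a read in all 19 testis libraries, with means of 174 and 179 RPM, and points at the bottom of a panel are libraries with no read.

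The 3 anticodons did not keep the same proportions. GCC entries took 87.2 ± 3.51% of glycine reads in testis, 83.4 ± 2.72% in caput, 83.3 ± 6.24% in heart, 82.4 ± 4.91% in liver, 79.4 ± 3.62% in cauda and 73.7 ± 4.96% in sperm. The TCC entry ran the other way, with 21.5 ± 5.04% in sperm, 16.2 ± 3.5% in cauda, 14.7 ± 5.52% in liver, 14.4 ± 2.46% in caput, 11.8 ± 5.54% in heart and 9.2 ± 2.64% in testis. In sperm the TCC share ran from 12 to 31.4%, and in testis from 5.39 to 13.9%, so that the ranges overlapped between 12% and 13.9%. CCC entries stayed below both, at 4.95 ± 1.99% in heart, 4.85 ± 2.62% in sperm, 4.4 ± 1.11% in cauda, 3.59 ± 1.2% in testis, 2.9 ± 1.34% in liver and 2.18 ± 1.12% in caput. Without the 4 liver libraries the liver shares were 81.2 ± 5.01% (GCC), 16.1 ± 5.57% (TCC) and 2.71 ± 1.46% (CCC; n = 13). These shares are a description of the libraries and carry no test.

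Heart stood apart in the proportions of the GCC entries. tRNA-Gly-GCC-1 had 44.8 ± 10.4 reads per 100 reads of tRNA-Gly-GCC-2 in heart (SD, n = 19), against 15.8 ± 1.92 in testis (n = 19), 6.85 ± 3.07 in sperm (n = 19), 6.75 ± 1.03 in cauda (n = 18) and 4.8 ± 2.58 in caput (n = 19). Liver averaged 13.5 ± 16 over all 17 libraries and 5.13 ± 2.15 over the 13 without the 4 named above. The lowest, median and highest heart library had 25.1, 45.2 and 62 reads, and the highest of the libraries of testis, sperm, cauda and caput had 18.1. Every heart library was therefore above every library of those 4 tissues. Testis (11.2 to 18.1) overlapped sperm (1.8 to 13) and caput (0 to 12.5) only slightly and did not overlap cauda (5.0 to 9.13). A ratio within a library does not depend on the scaling of the library, but it does depend on how reads were divided between the 2 names.

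**Figure D2:**
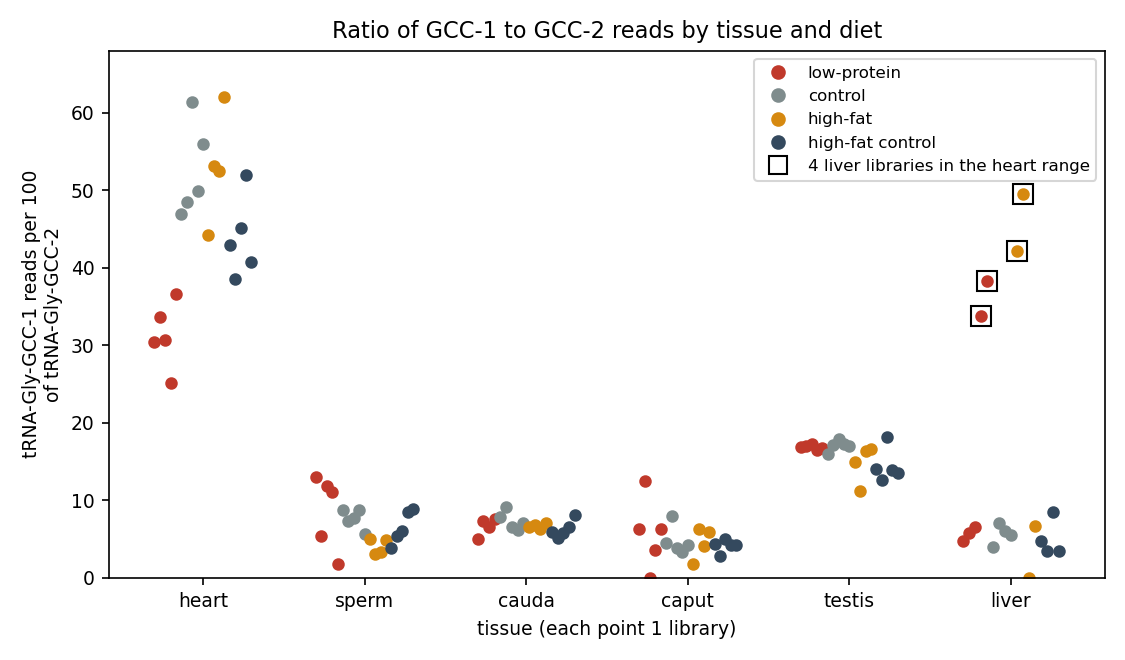
Reads of tRNA-Gly-GCC-1 per 100 reads of tRNA-Gly-GCC-2 in each library, by tissue and coloured by diet. Heart libraries lie between 25.1 and 62, and the squares mark the 4 liver libraries between 33.7 and 49.5.

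The level of tRNA-Gly-GCC-1 itself was higher in heart than in each other tissue in a fit over all features and libraries with terms for tissue and diet (edgeR's quasi-likelihood test, Benjamini-Hochberg adjustment, called at an adjusted p under 0.05 and a log2 fold change of 1 or more in size). It averaged 3746 ± 1869 RPM in heart, 2737 ± 1583 in testis, 1552 ± 1111 in liver, 1137 ± 577 in caput, 735 ± 381 in cauda and 702 ± 803 in sperm. The log2 fold change of heart over sperm was 4.50 ± 0.39 (SE; adjusted p = 9.7e-21), that over cauda 4.19 ± 0.39 (adjusted p = 9.5e-19) and that over caput 3.66 ± 0.37 (adjusted p = 6.6e-16). Heart exceeded testis by 3.09 ± 0.36 (adjusted p = 9.4e-14) and liver by 2.34 ± 0.37 (adjusted p = 9.9e-08). Of all 294 features tested, 25.5%, 17.7%, 26.5%, 15% and 11.2% were called higher in heart than in sperm, cauda, caput, testis and liver. Without the 4 liver libraries the fold change of heart over liver was 3.61. With total counts in place of TMM factors, heart over testis was 0.45 (adjusted p = 0.163) and was no longer called, while heart over sperm, cauda, caput and liver remained called at 2.50, 2.26, 1.61 and 1.19.

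The directions of the other glycine entries between heart and the other tissues depended on the scaling. Of the 25 pairs of a tested entry and a heart comparison, 19 changed sign between TMM factors, RLE factors and total counts, and the 6 that did not were the 5 of GCC-1 and GCC-4 in heart over caput. tRNA-Gly-TCC-1 in heart over sperm was 0.81 ± 0.28 with TMM factors and −1.12 with total counts. The median of all features in heart over testis moved likewise, at −1.12 with TMM factors, −2.56 with RLE factors and −3.72 with total counts. With TMM factors, the number of tested glycine entries called higher in heart was 5 of 5 against testis, 4 of 5 against sperm, 3 of 5 against cauda, 2 of 5 against caput and 2 of 5 against liver, and 0 were called lower in each. Over all 15 tissue pairs, 31 of 75 pairs of entry and comparison were called, against 59.2% of all features, and 10 of them belonged to tRNA-Gly-GCC-1, 8 to GCC-2, 5 to GCC-4, 5 to CCC-1 and 3 to TCC-1. Of these 31, 12 had the opposite sign in at least 1 alternative, 11 of them in heart comparisons of entries other than GCC-1 and 1 being GCC-1 in caput over liver.

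Along the male tract few of the tested glycine entries were called. Between sperm and testis 1 of 5 was called, against 75.2% of all features: tRNA-Gly-GCC-1 was lower in sperm, at −1.41 ± 0.35 on the log2 scale (adjusted p = 0.00013), with medians of 351 RPM in sperm and 2411 RPM in testis. tRNA-Gly-TCC-1 was at 0.96 ± 0.28 (adjusted p = 0.00117), just under the limit of 1 for the fold change. Between sperm and the cauda epididymis, the segment that stores them, 0 of 5 were called by edgeR's quasi-likelihood test, against 42.9% of all features, 0 had an unadjusted p under 0.05 and DESeq2 called 0. The 5 log2 fold changes there ran from −0.52 to 0.03, with standard errors of 0.28 to 0.36. Between cauda and caput, the first segment of the epididymis, 1 of 5 was called, against 64.6%: tRNA-Gly-GCC-2 was lower in cauda, at −1.14 ± 0.28 (adjusted p = 0.00021), at 10808 ± 5198 RPM in cauda and 25847 ± 9469 RPM in caput. tRNA-Gly-GCC-4 at −0.94 ± 0.29 and tRNA-Gly-TCC-1 at −0.80 ± 0.28 passed the adjusted p (0.00256 and 0.00855) but not the limit on the fold change. Of the other cytosolic tRNAs, 40 of 69 were called higher and 3 lower in cauda than in caput, with a median of 1.11 against −0.80 for the glycine entries and 0.80 for all features.

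The 2 rare CCC entries had their highest mean RPM in testis. tRNA-Gly-CCC-2 averaged 174 ± 118 RPM in testis (SD, n = 19; 24 to 494), with 595 reads in 19 of 19 libraries, and 1.34 to 23.1 RPM on average in the other 5 tissues. tRNA-Gly-CCC-3 averaged 179 ± 106 RPM in testis (47.9 to 442), with 624 reads in 19 of 19 libraries, and 7.82 to 41.1 RPM on average elsewhere. Control livers lay inside the testis ranges, so testis did not stand alone. CCC-2 had 0 to 20.6 RPM in low-protein livers and 50.2 to 86.3 RPM in control livers, and 47.4, 51.2, 0 and 0 RPM in high-fat livers against no read in the 4 high-fat control livers. CCC-3 had 0 to 30.8 RPM in low-protein livers and 66.9 to 155 RPM in control livers, and 73, 76.8, 0 and 0 RPM in high-fat livers against no read in the 4 high-fat control livers. The high-fat control livers held only 6279 to 22145 reads, and the high-fat livers 274137, 273581, 827 and 51432. At such depths the lack of a read in the high-fat control livers does not show a lower level. The 2 high-fat livers with reads are among the 4 libraries that stood apart. Both entries had too few reads in liver to be tested in the fit with all 4 diets. With only the low-protein and control livers in the fit, both were called lower on the low-protein diet. CCC-2 was at −2.27 (adjusted p = 0.0162, edgeR) and CCC-3 at −2.31 (0.0101), and tRNA-Gly-GCC-3 was also called there, at −2.58 (0.00771). These entries met the filter on low counts through the control livers, where they were high, and CCC-2 and CCC-3 met it in no low-protein liver. Their calls in this fit therefore follow in part from how the filter chose them and are not separate support for a lower level. In sperm, CCC-2 had 5 reads in 4 of 19 libraries and CCC-3 had 12 in 7 of 19. tRNA-Gly-CCC-1, the common CCC entry, did not share this pattern, with 1196 ± 1068 RPM in testis and tissue means from 944 to 1277 RPM. tRNA-Gly-GCC-3 stayed at tissue means of 6.9 to 32.7 RPM. These 3 entries had too few reads to enter the fit over tissues, so their tissue differences were not tested.

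Diet was compared within each tissue, in 1 fit per tissue with all 4 diets, in which an entry was called at an adjusted p under 0.05. In liver 2 of 5 tested glycine entries were lower on the low-protein diet, against 25.9% of all features called lower and 35.6% called in either direction. tRNA-Gly-CCC-1 had 959, 346, 209.7, 603 and 306 RPM in the 5 low-protein livers and 2726, 3096, 1876 and 3984 RPM in the 4 control livers. The groups did not overlap, and the entry fell by 2.40 ± 0.63 on the log2 scale (SE; edgeR's quasi-likelihood test, adjusted p = 0.00485). tRNA-Gly-GCC-4 had 14866, 7393, 4238, 5369 and 3321 RPM in low-protein livers and 27191, 25274, 19102 and 25304 RPM in control livers, again without overlap, and fell by 1.67 ± 0.57 (adjusted p = 0.0244). tRNA-Gly-GCC-2 was at −1.33 ± 0.57 (adjusted p = 0.0755), TCC-1 at −0.99 ± 0.56 (0.187) and GCC-1 at 0.22 ± 0.83 (0.921). Other cytosolic tRNAs in the same comparison had a median of −2.60, with 50 of 65 called lower and 0 higher, and the glycine entries had a median of −1.33.

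Without the 4 liver libraries that stood apart, CCC-1 in low-protein against control liver was at −2.71 (adjusted p = 0.00055, edgeR) and GCC-4 at −1.49 (0.00926), and GCC-2 was also called, at −1.21 (0.0283). tRNA-Gly-GCC-1 turned to −1.27 (0.0571). Without the 18 libraries nearest another tissue, low-protein livers 2, 3 and 5 and control livers 1 and 3 remained, and CCC-1 was at −2.24 (adjusted p = 0.00679, edgeR), GCC-4 at −1.47 (0.0468) and GCC-2, not called, at −1.12 (0.15). The call of GCC-4 was lost without control replicate 2, 3 or 4 or without low-protein replicate 2, 3, 4 or 5, at −1.57, −1.67, −1.45, −1.42, −1.49, −1.41 and −1.11 with adjusted p of 0.0537 to 0.157. Mitochondrial tRNAs took 52.5 to 78% of reads in low-protein livers and 21.7 to 28.6% in control livers, and the column numbers were S48 to S52 in low-protein livers and S1 to S4 in control livers. Their part in the result was not tested. As a share of cytosolic tRNA reads, CCC-1 took 0.139 to 0.359% in low-protein livers and 0.306 to 0.578% in control livers, and these ranges overlapped. The share of GCC-4 was not lower, at 3.44 to 5.57% in low-protein livers without the 4 libraries (n = 3) and 3.11 to 5.35% in control livers. Cytosolic tRNAs together took 12.3 to 26.7% of reads in those low-protein livers and 50.9 to 70.9% in control livers.

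In heart 4 of 7 tested glycine entries were lower on the low-protein diet and none higher, in a comparison in which 41.7% of all features were called lower and 75.2% in either direction. The 4 were the 3 CCC entries and TCC-1, and no GCC entry was called. tRNA-Gly-TCC-1 had 690.3, 916, 2876, 2787 and 2778 RPM in the 5 low-protein hearts and 6976, 4718, 4406, 4858 and 4356 RPM in the 5 control hearts. All low-protein hearts were below all control hearts, and the entry fell by 1.68 ± 0.52 on the log2 scale (adjusted p = 0.00201, edgeR). tRNA-Gly-CCC-1 had 102, 170.5, 1335, 697 and 721 RPM in low-protein hearts and 1543, 1285, 2092, 1449 and 1635 RPM in control hearts and fell by 1.92 ± 0.51 (adjusted p = 0.00029), with an overlap only in low-protein replicate 3. tRNA-Gly-CCC-2 had 1, 0, 0, 0 and 3 reads in low-protein hearts and 14, 17, 31, 20 and 48 in control hearts or 5.66, 0, 0, 0 and 6.38 RPM and 18.5, 13.5, 28.2, 27.2 and 32.7 RPM. The groups did not overlap, and it fell by 2.67 ± 0.76 (adjusted p = 0.00071). tRNA-Gly-CCC-3 had 1, 0, 1, 3 and 10 reads in low-protein hearts and 24, 30, 53, 32 and 74 in control hearts or 5.66, 0, 34.2, 27.9 and 21.3 RPM and 31.7, 23.8, 48.1, 43.5 and 50.4 RPM. The groups overlapped, and it fell by 1.57 ± 0.57 (adjusted p = 0.00835). The GCC entries were at 0.20 ± 0.50 (GCC-2), −0.53 ± 0.51 (GCC-1) and −0.89 ± 0.51 (GCC-4), with adjusted p of 0.723, 0.346 and 0.101. Other cytosolic tRNAs had 73 of 86 called lower and 4 called higher, with a median of −3.35 against −1.57 for the glycine entries and −0.29 for all features.

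The low-protein hearts were uneven. Their glycine sums were 3831, 6936, 45907, 31292 and 36757 RPM, against 28140.1, 25615, 26029.9, 27880.4 and 23554 RPM in control hearts, so that low-protein replicates 1 and 2 lay below and replicates 3, 4 and 5 above the controls. Mitochondrial tRNAs took 82.4, 87.3, 36.7, 46.5 and 60.2% of reads in the low-protein hearts and 74.7 to 78% in the control hearts, the depth was 29211 to 470061 reads in low-protein hearts and 735211 to 1467880 in control hearts, and the column numbers were S35 to S39 in low-protein hearts and S5 to S9 in control hearts. Low-protein hearts 1, 2 and 4 correlated best with the liver profile, at 0.862, 0.917 and 0.904 against 0.850, 0.904 and 0.886 with the heart profile, whereas every control heart correlated best with heart. The part of these differences in the result was not tested. Without the 18 libraries nearest another tissue, which leaves low-protein hearts 3 and 5, 3 of 7 entries were called: CCC-1 at −1.34 (adjusted p = 0.0316, edgeR), CCC-2 at −2.23 (0.0319) and TCC-1 at −1.37 (0.0356), while CCC-3 was at −1.08 (0.171). Without low-protein replicates 1 and 2, TCC-1 was at −1.27 (adjusted p = 0.0204, edgeR), CCC-1 at −1.33 (0.0112) and CCC-3, no longer called, at −0.98 (0.147). Without control replicate 1, 2 of 7 entries were called, TCC-1 being at −0.86 (0.139) and CCC-3 at −0.93 (0.127). CCC-3 was likewise not called without control replicate 2, 3, 4 or 5, at −1.14, −0.82, −0.97 and −0.93. For these reduced fits the share of all features called is not given here, so the counts of 3 of 7 and 2 of 7 cannot be set against it.

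The ratio of the 2 abundant GCC entries was lower in low-protein hearts and livers. In heart, tRNA-Gly-GCC-4 had 32.6, 33.5, 33.6, 37.2 and 39 reads per 100 reads of GCC-2 in low-protein hearts and 75.4, 76.2, 80.4, 77.2 and 80.2 in control hearts. The means were 35.2 ± 2.75 and 77.9 ± 2.32 (SD, n = 5 each), and the groups did not overlap. High-fat hearts (63.4 ± 5.46, n = 4) and high-fat control hearts (60.2 ± 3.94, n = 5) lay between and overlapped each other. In liver the ratio was 68.1, 64.7, 64.9, 58.9 and 63 in low-protein livers and 82, 79.3, 82 and 80.0 in control livers, also without overlap, and 63.6 to 74.7 in high-fat livers and 67.4 to 76.3 in high-fat control livers, which overlapped. Without the 4 liver libraries the ratio was 64.7 to 68.1 in low-protein livers (n = 3) and 79.3 to 82 in control livers. In the testis, cauda, caput and sperm the low-protein means were 88.4, 91.7, 78.9 and 79.8 and the control means 89.3, 93.6, 73 and 84.3, with overlapping ranges in each. The low-protein hearts also had less GCC-1 per 100 of GCC-2, at 30.5, 33.7, 30.6, 25.1 and 36.7 against 46.9, 48.5, 61.4, 49.9 and 55.9 in control hearts. These ratios are described without a test, the control and low-protein libraries of both tissues differ in column number as given above, and because the entries may list the same reads the ratio can also move with how reads were divided between names.

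Summed per anticodon, GCC reads averaged 22309.6 ± 17077 RPM in low-protein hearts and 19517 ± 1423 RPM in control hearts (SD, n = 5 each), CCC reads 625 ± 512 RPM in low-protein hearts and 1664 ± 316 RPM in control hearts, and TCC reads 2009.6 ± 1105 RPM in low-protein hearts and 5063 ± 1090.1 RPM in control hearts. In liver GCC reads averaged 19320.2 ± 10992 RPM in low-protein livers and 55946 ± 8149 RPM in control livers (n = 5 and 4), CCC reads 507 ± 298 RPM in low-protein livers and 3104 ± 903 RPM in control livers, and TCC reads 3885 ± 3497 RPM in low-protein livers and 7547 ± 3202 RPM in control livers. The sums were also fitted with all cytosolic tRNAs, not only those of glycine, summed per anticodon, which changes the features that set the scaling. The log2 fold changes in low-protein hearts were −0.44 ± 0.50 (GCC), −2.12 ± 0.53 (CCC) and −1.92 ± 0.53 (TCC). In low-protein livers they were −2.02 ± 0.65, −3.13 ± 0.73 and −1.71 ± 0.60 in the same order. The TCC sum is the single entry TCC-1, which was at −1.68 in heart and −0.99 in liver in the fits of single entries. Fold changes of sums and of single entries are therefore not directly comparable. Without the 4 liver libraries, the low-protein livers (n = 3) averaged 22805 ± 13564 RPM of GCC, 509 ± 395 RPM of CCC and 5358 ± 4032 RPM of TCC. In the fit of sums, the log2 fold changes against the same control livers were then −1.53 ± 0.44, −2.97 ± 0.58 and −0.83 ± 0.53. All of these are given as a description, with no test.

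**Figure D3:**
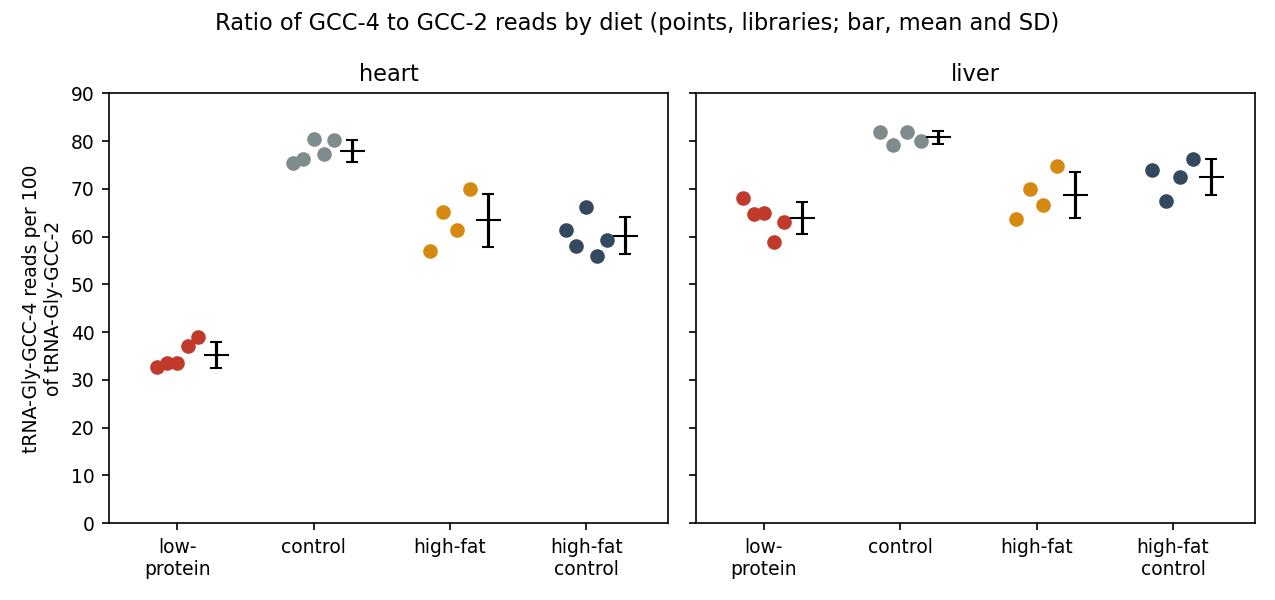
Reads of tRNA-Gly-GCC-4 per 100 reads of tRNA-Gly-GCC-2 by diet in heart and liver, with 1 point per library and the mean and SD beside each group. Low-protein hearts lie between 32.6 and 39 and control hearts between 75.4 and 80.4.

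The 2 rare CCC entries were higher in high-fat hearts. This comparison called few features, 0.826% higher and 1.24% or 3 of 242 in either direction, and 2 of the 3 were tRNA-Gly-CCC-2 and tRNA-Gly-CCC-3, out of 7 glycine entries tested. tRNA-Gly-CCC-2 had 43.4, 51.9, 28.4 and 81.3 RPM in the 4 high-fat hearts and 19.6, 3.36, 5.71, 0 and 3.79 RPM in the 5 high-fat control hearts, from 30, 17, 14 and 51 reads and 13, 1, 2, 0 and 2 reads. Every high-fat heart was above every high-fat control heart, and the entry rose by 2.44 ± 0.58 on the log2 scale (SE; edgeR's quasi-likelihood test, adjusted p = 0.00667). However, tRNA-Gly-CCC-2 passed the filter on low counts only through the high-fat hearts, the group where it was high. Too few of the other hearts reached the level that the filter asks for. Its call therefore follows in part from how the filter chose it. tRNA-Gly-CCC-3 had 60.8, 61, 60.9 and 113 RPM in high-fat hearts and 31.7, 13.4, 20.0, 0 and 5.68 RPM in high-fat control hearts, again without overlap, and rose by 2.0 ± 0.52 (adjusted p = 0.0102). High-fat control replicate 4, with no read of either entry, held only 11320 reads, against 297838 to 690671 in the other hearts of this comparison. Its lack of a read therefore does not show a lower level. Control hearts of the low-protein comparison had 13.5 to 32.7 RPM of CCC-2 and 23.8 to 50.4 RPM of CCC-3. The common entry CCC-1 was not called, at −0.35 ± 0.52 (adjusted p = 0.969), and GCC-1, GCC-2, GCC-4 and TCC-1 were at 0.60, 0.28, 0.33 and 0.39. Since CCC-2 and CCC-3 may list the same reads, the 2 calls need not be separate. No high-fat or high-fat control heart was among the 18 libraries nearest another tissue. Both calls were lost without high-fat control replicate 3 (CCC-2 2.18, CCC-3 1.89, adjusted p = 0.0662 for each) or without high-fat control replicate 5 (2.26 with 0.0503 and 1.75 with 0.172), and with every entry of the table kept (adjusted p = 0.304 and 0.423).

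**Figure D4:**
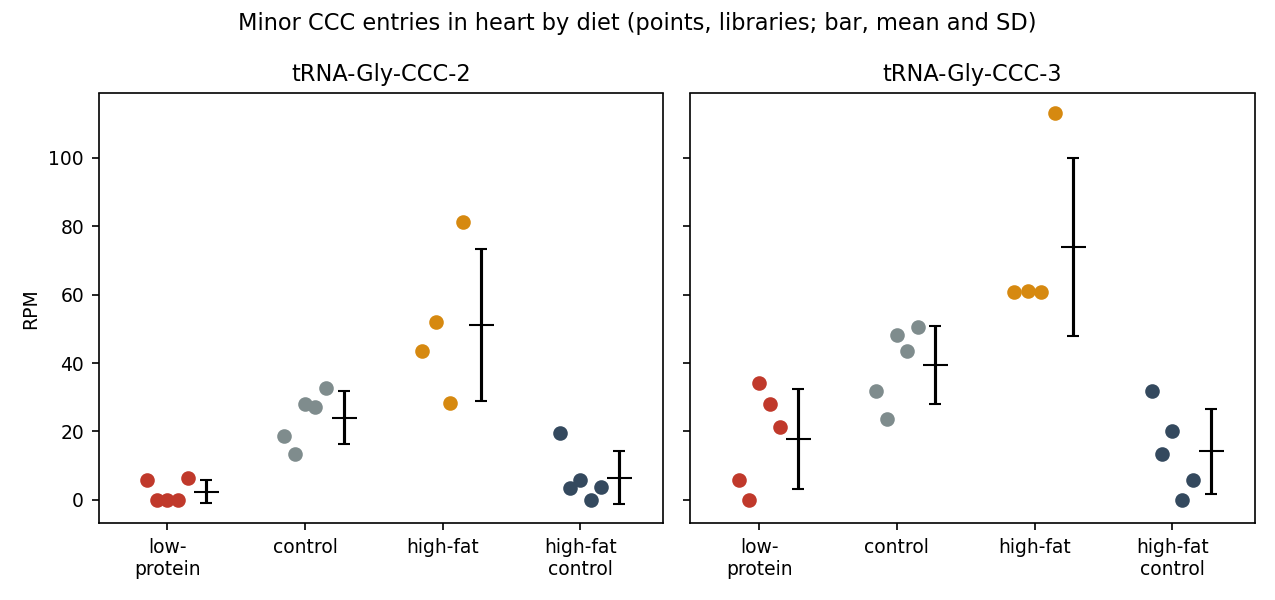
RPM of tRNA-Gly-CCC-2 and tRNA-Gly-CCC-3 in heart by diet, with 1 point per library and the mean and SD beside each group. The 4 high-fat hearts lie between 28.4 and 81.3 RPM of CCC-2, above the 5 high-fat control hearts between 0 and 19.6.

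In the other 9 diet comparisons no glycine entry was called by edgeR's quasi-likelihood test, nor by DESeq2. In liver on the high-fat diet 0 of 5 were called, against 2.93% of all features, and 1 had an unadjusted p under 0.05: tRNA-Gly-GCC-1, at 2.23 ± 0.94 (adjusted p = 0.143) with all libraries and at −0.59 (adjusted p = 0.593) without the 4 liver libraries, of which 2 are high-fat livers. In caput on the low-protein diet 0 of 5 were called while 41.4% of all features were, and on the high-fat diet 0 of 5 against 0.69%, with 0 at an unadjusted p under 0.05 in both. In testis 0 of 7 were called on each diet, and in cauda and sperm 0 of 5 on each, in comparisons that called 0% of all features, with 1 unadjusted p under 0.05 among them (tRNA-Gly-CCC-1, cauda, low-protein diet, −1.21 ± 0.55). In cauda all 5 entries were below 0 on the low-protein diet, from −1.21 to −0.87, and 4 of 5 were called when only the low-protein and control libraries entered the fit. The share of all features called in that smaller fit is not given here, so the 4 of 5 cannot be read as particular to glycine entries. In testis all 7 entries were below 0 on the low-protein diet (−1.33 to −0.87) and above 0 on the high-fat diet (1.07 to 1.35). Without the 18 libraries nearest another tissue, of which 3 are control testes, all 7 were above 0 on the low-protein diet (0.81 to 1.55, 0 called by edgeR), so their direction rests on those 3 libraries. In caput, where 4 of the 5 low-protein libraries were among the 18, 0 of 5 were called without them, with the lone low-protein library assumed to vary like the other groups.

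In sperm, where fragments of these tRNAs have been described, tRNA-Gly-GCC-2 had 4024, 30639, 21391, 8600.0 and 3663 RPM in low-protein and 31082, 16202, 3462, 10317 and 2742 RPM in control libraries. The log2 fold change was −0.11 ± 0.67 (adjusted p = 0.987, edgeR) and the ranges overlapped. On the high-fat diet it had 5367, 3218, 1850.1 and 5575 RPM, against 9013, 8456, 984, 7879 and 1659.6 RPM on the high-fat control diet, at −0.12 ± 0.71 (adjusted p = 0.99). The standard errors of the 10 sperm fold changes ran from 0.66 to 0.82, so a change of 1 log2 unit was not detectable in these libraries. An interaction test of diet with the 6 tissues called 0 of 7 glycine entries on the low-protein diet, against 35.9% of all features, with 1 at an unadjusted p under 0.05 and 2 called by DESeq2. On the high-fat diet it called 0 of 5, against 3.17%, with 1 at an unadjusted p under 0.05 and 1 called by DESeq2. The low-protein calls in heart and liver are thus not shown to differ from the effects in the other tissues. CCC-2 and CCC-3, the entries called in high-fat heart, were not among the 5 tested on the high-fat diet. Whether their effect differs among tissues was therefore not tested.

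**Figure D5:**
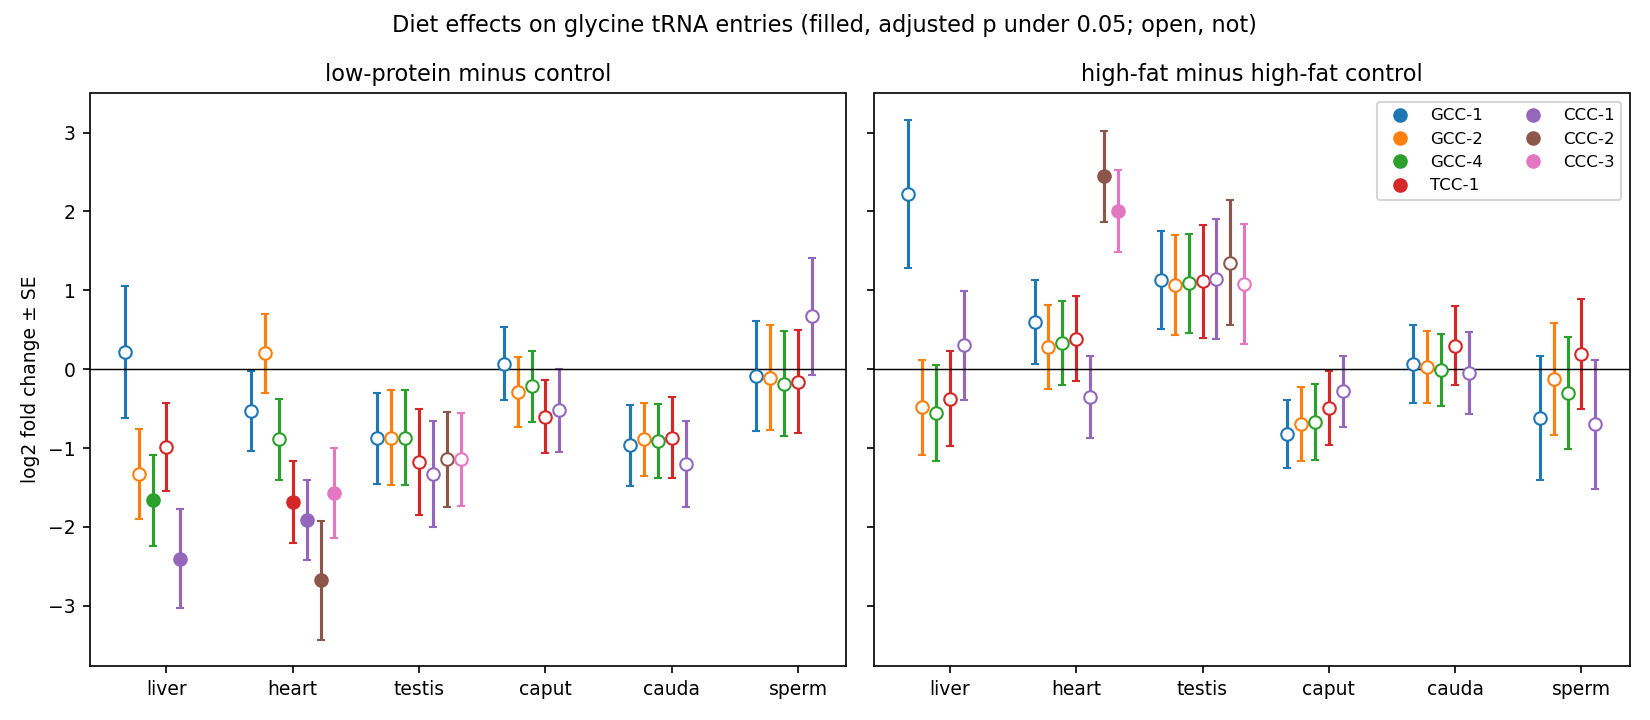
Log2 fold changes with standard errors of each tested glycine tRNA entry for both diet comparisons in the 6 tissues, filled where the adjusted p was under 0.05. The 8 filled points are 2 in low-protein liver, 4 in low-protein heart and 2 in high-fat heart.

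Across the 24 groups the glycine entries followed one another to different degrees. The mean log2(RPM + 1) of tRNA-Gly-GCC-2 and GCC-4 had a Spearman correlation of 0.96, that of GCC-2 and TCC-1 0.80 and that of GCC-2 and CCC-1 0.53, whereas GCC-1 correlated with GCC-2 at 0.24 and with TCC-1 at 0.015. Among the tested features outside the glycine tRNAs, the GCC sum was most like tRNA-Gln-TTG-1 (0.84), tRNA-Val-TAC-1 (0.83) and tRNA-Thr-TGT-3 (0.80). The CCC sum was most like tRNA-Thr-AGT-1 (0.85), and the TCC sum most like tRNA-Gln-TTG-3 (0.84). Entries of a group come from the same libraries and so share their depth and mitochondrial share, and these correlations describe 24 group means with no test. Other tRNAs known as parents of sperm fragments (those for glutamate, valine, lysine, histidine and aspartate) are set beside the shares of all features in the same 2 low-protein comparisons. In liver 7 of 14 were called lower and 0 higher, against 25.9% of all features called lower, with a median of −1.64. In heart 12 of 19 were called lower and 3 higher, against 41.7% of all features called lower and 75.2% in either direction, with a median of −2.39. In high-fat hearts 0 of these 19 were called, with a median of 1.14.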

How the data were processed

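Small RNA was sequenced by OTTR-seq in mouse libraries of 6 tissues and 4 diets. The deposited table holds raw read counts per small RNA entry, which are whole numbers and not normalized. The tools named in the submitters' processing notes are cutadapt and DESeq2, with the build mm10; the aligner and the counting rule were not given in the sources used here. Of 1268 entries, 1042 features were kept, after entries that list the same reads (summed difference under 5%, from a total of 50 reads), second names of mitochondrial tRNAs and all but 1 of the 5S rRNA entries had been left out. The kept features hold 51.1% of the reads of the table. No column was left unmapped.

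RPM stands for reads per 1000000 reads over the kept features. Tests used edgeR 4.0.16 (quasi-likelihood, TMM factors, filter on low counts) in R 4.3.3, with Benjamini-Hochberg adjustment over all features: 1 fit per tissue with 4 diets, 1 fit over tissues with diet as a term, and 1 interaction fit. DESeq2 1.42.0, other scalings and filters, left-out libraries and a replicate block were alternatives. The fits were also run on simulated counts with known changes, drawn from the mean profile of the libraries with the same spread for every feature. Those counts do not copy the differences in mitochondrial share between these libraries, so the run does not show how the fits handle them. The main fits did not pair libraries by replicate number. Of same-numbered pairs, 16 of 52 across diets correlated above 0.1 (median 0.04), as did 40 of 270 across tissues. The check and the replicate block used the numbers of the sample titles. Library names are numbered otherwise in control liver, high-fat control liver and low-protein cauda. The check therefore cannot exclude that libraries of different tissues came from the same mouse, and the fit over tissues treats all libraries as independent. No replicate pair agreed within sampling noise. All 8 entries and their sums are named, and beyond them the 3 features most like each anticodon sum. The members, lists and tests were chosen with earlier results of these data known.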

Additional observations from a re-analysis of the deposited data

Results flagged for a closer look

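Single libraries lay apart from the rest of their group in 11 of 184 checks of a glycine entry or ratio within a group of 4 or 5 libraries, by Dixon's test at the 95% level, which flags about 1 in 20 groups by chance (9.2 of 184). Control liver replicate 3 had 23298 RPM of tRNA-Gly-GCC-2, below the 31625 to 33149 of the other control liver libraries. High-fat liver replicate 3 had 12092 RPM of tRNA-Gly-TCC-1, above the 1656 to 2722 of the other high-fat liver libraries. Control heart replicate 1 had 6976 RPM of tRNA-Gly-TCC-1, above the 4356 to 4858 of the other control heart libraries. High-fat heart replicate 4 had 113 RPM of tRNA-Gly-CCC-3, above the 60.8 to 61 of the other high-fat heart libraries. High-fat control testis replicate 3 had 18.1 reads of tRNA-Gly-GCC-1 per 100 of tRNA-Gly-GCC-2, above the 12.6 to 14 of the other high-fat control testis libraries. High-fat control testis replicate 5 had 24 RPM of tRNA-Gly-CCC-2, below the 98.6 to 115 of the other high-fat control testis libraries. Control caput replicate 4 had 1586 RPM of tRNA-Gly-CCC-1, above the 499.8 to 801 of the other control caput libraries. Control caput replicate 2 had 7.92 reads of tRNA-Gly-GCC-1 per 100 of tRNA-Gly-GCC-2, above the 3.34 to 4.55 of the other control caput libraries. High-fat cauda replicate 4 had 11023 RPM of tRNA-Gly-TCC-1, above the 2227 to 3682 of the other high-fat cauda libraries. Low-protein sperm replicate 3 had 8703 RPM of tRNA-Gly-CCC-1, above the 264 to 2054 of the other low-protein sperm libraries. Control sperm replicate 3 had 75.8 reads of tRNA-Gly-GCC-4 per 100 of tRNA-Gly-GCC-2, below the 85 to 87.2 of the other control sperm libraries.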

How the results depend on the processing

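The count of glycine entries called in low-protein liver (2) was 4 with RLE factors, 5 with no filter, 4 with DESeq2, 1 with the replicate block, 4 without libraries under 5000 reads and 6 with only 2 diets in the fit, where more entries passed the filter on low counts through the control livers. With 2 diets it was 1 in low-protein heart (4) and 4 in low-protein cauda (0). In high-fat heart (2) it was 0 with all entries of the table and 1 with the replicate block. In sperm against testis (1) it was 2 with total counts, 3 with no filter, 5 with all entries, 2 with control diets only and 2 without the 18 libraries nearest another tissue. In cauda against caput (1) it was 2, 3 and 5 under the same first 3 settings and 2 without the 4 liver libraries and 3 without the 18. Over 15 tissue pairs (31) it was 12 with RLE factors, 56 with no filter, 12 with DESeq2 and 60 with all entries. The low-protein interaction count (0) was 1 with RLE factors, 1 with total counts, 2 with DESeq2, 5 with all entries and 1 without the 4 liver libraries, and the high-fat one (0) was 1 with no filter and 1 with DESeq2. Leaving out 1 replicate gave 1 to 2 calls in low-protein liver, 2 to 5 in low-protein heart, 0 to 2 in high-fat heart, 0 to 1 in sperm against cauda, 1 to 5 in cauda against caput, 33 to 43 over 15 pairs and 0 to 1 in each interaction. The share of all features called under each of these settings is not given here, so a change in a count cannot be told from a general change in calls. The cause of these changes was not tested. The ratio of glycine sums in caput over heart was 1.16 as a share of cytosolic tRNA reads and 2.72 in RPM. CCC-1 was called in all 19 alternatives in low-protein liver and in all 19 in low-protein heart. Under the replicate block GCC-4 in low-protein liver had an adjusted p of 0.107 and CCC-3 in high-fat heart 0.0958. Of the 8 called pairs of entry and diet comparison, 0 had the opposite sign in an alternative. Of the 60 uncalled ones 30 had it in at least 1, among them GCC-1 in liver on both diets without the 4 liver libraries. Of tissue pairs, 12 of 31 called and 29 of 44 uncalled ones had the opposite sign in at least 1 alternative. Leaving out the 4 liver libraries, leaving out the 18 libraries nearest another tissue, leaving out low-protein hearts 1 and 2, and the sum without GCC-4 were chosen after seeing the data. Depth limits the rare entries most: CCC-2 had a median of 0 RPM in liver, caput, cauda and sperm, CCC-3 in caput and sperm, and GCC-3 in sperm.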
